A study of Mus musculus with 56 samples.

Results

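The mitochondrial respiratory chain was followed through 45 nuclear genes that encode subunits of its complexes I to IV and cytochrome c, of which 43 were measured among 12508 genes tested. The members were named in advance by gene symbol, and each was represented by the probe set with the highest mean over 56 arrays. They comprised 25 genes named as complex I subunits, 4 of complex II, 6 of complex III, 7 of complex IV and the cytochrome c gene Cycs. Cox7b had no probe set under its symbol here, and the only probe set of Ndufs6 was shared with Ndufs6b, so neither was given a value. All 43 others passed the filter on low values.

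The samples were mammary tumors of mouse, 1 Affymetrix 3' expression array per tumor, grown from p53null mammary fragments that were themselves never irradiated. The fragments were placed in the inguinal fat pads of female BALB/c hosts from which the mammary epithelium had been cleared at 3 weeks of age, so the hosts kept their stroma but no epithelium of their own there. Hosts were wild type (WT) or TGFb1 heterozygote (Het, 1 intact copy of the gene of transforming growth factor beta 1), and were irradiated or sham-irradiated 3 days before the transplant. There were 9 tumors from sham-irradiated and 23 from irradiated wild-type hosts, and 6 from sham-irradiated and 18 from irradiated heterozygote hosts. All tumors therefore lacked p53 in the transplanted cells, in every group. The labels give no radiation dose and do not say whether tumors shared a donor fragment or a host, so each p-value reflects only how far these tumors spread.

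Oxidative phosphorylation makes most of the ATP of a resting cell. Complex I takes electrons from NADH and complex II from succinate, ubiquinone carries them to complex III, cytochrome c carries them on to complex IV, and complex IV passes them to oxygen. Complexes I, III and IV pump protons across the inner membrane, and ATP synthase uses the gradient. Most subunits are encoded in the nucleus and must be matched to the few encoded in mitochondrial DNA, and transcription factors such as NRF1, GABPA, YY1 and ESRRA are known regulators of many of the nuclear genes. Tumors can draw on glycolysis as well as on respiration, and mammary tumors differ in how much they use of each.

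The arrays of the host genotypes had different value distributions and were treated as normalized separately, so every comparison below lies within a host genotype. The 18S ribosomal RNA control lay below 11 (log2) on 9 arrays, unevenly over the groups: 4 of 9 sham-irradiated wild-type tumors (9.28 to 9.62), 2 of 23 irradiated ones, 1 of 6 sham-irradiated heterozygote tumors and 2 of 18 irradiated ones. The 3' minus 5' difference of the Gapdh and Actb control probe sets, which grows as RNA degrades, ran from 0.18 to 0.25 in sham-irradiated and from 0.07 to 0.91 in irradiated wild-type hosts, with medians of 0.20 and 0.18 and the series' highest value on WT_irradiated replicate 57. In heterozygote hosts it was higher in the sham group by median, with 0.32 (0.28 to 0.69) against 0.25 (0.14 to 0.56). Epithelial markers, which include the keratins of the labelled tissue, had mean log2 levels between 6.87 and 12.83, with group medians from 11.69 to 12.11. WT_sham replicate 46 stood apart in its markers, with deviations from its group mean of 5.31 for the erythroid marker and 3.94 for the endothelial list, where the next highest tumors of the group were at 1.10 and 0.30. In the epithelial list the lowest tumor of that group was replicate 60, at -3.46, and replicate 46 was next at -1.39.

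Promoter sequence is shown for 5 members, 3 that hold a match to a known regulator's motif and the 2 whose levels followed the other members most closely, Ndufb5 and Uqcrfs1. The sequences are the 250 bases before the transcription start, from RefSeq on GRCm38.p6, and capitals mark a match to GCGCATGC (NRF1) or CCGGAAG (GABPA) on either strand. Cycs encodes cytochrome c, Sdhb the iron-sulfur subunit of complex II, Cox6a1 a nuclear subunit of complex IV, Ndufb5 an accessory subunit of complex I and Uqcrfs1 the Rieske iron-sulfur protein of complex III.
Cycs (chr6:50566570-50566819, minus strand): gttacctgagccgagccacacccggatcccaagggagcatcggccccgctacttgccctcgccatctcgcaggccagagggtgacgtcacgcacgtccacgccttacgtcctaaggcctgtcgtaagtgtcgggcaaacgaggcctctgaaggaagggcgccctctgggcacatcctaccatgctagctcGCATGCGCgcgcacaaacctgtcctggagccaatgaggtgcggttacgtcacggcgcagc
Sdhb (chr4:140961021-140961270, plus strand): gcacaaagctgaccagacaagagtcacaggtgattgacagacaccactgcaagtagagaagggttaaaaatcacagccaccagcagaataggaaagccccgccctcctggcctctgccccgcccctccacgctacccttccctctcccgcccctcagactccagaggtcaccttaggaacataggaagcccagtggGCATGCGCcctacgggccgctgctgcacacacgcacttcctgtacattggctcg
Cox6a1 (chr5:115348959-115349208, minus strand): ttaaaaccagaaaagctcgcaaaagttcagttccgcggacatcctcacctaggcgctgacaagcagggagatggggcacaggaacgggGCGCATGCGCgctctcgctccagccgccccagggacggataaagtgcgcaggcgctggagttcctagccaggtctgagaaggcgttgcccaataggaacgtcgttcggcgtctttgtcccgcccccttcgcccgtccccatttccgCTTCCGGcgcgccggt
Ndufb5 (chr3:32736813-32737062, plus strand): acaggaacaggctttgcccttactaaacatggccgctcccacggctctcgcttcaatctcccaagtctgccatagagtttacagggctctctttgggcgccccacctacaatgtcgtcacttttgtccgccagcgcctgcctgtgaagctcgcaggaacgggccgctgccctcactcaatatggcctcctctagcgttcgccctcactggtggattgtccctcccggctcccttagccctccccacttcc
Uqcrfs1 (chr13:30545317-30545566, minus strand): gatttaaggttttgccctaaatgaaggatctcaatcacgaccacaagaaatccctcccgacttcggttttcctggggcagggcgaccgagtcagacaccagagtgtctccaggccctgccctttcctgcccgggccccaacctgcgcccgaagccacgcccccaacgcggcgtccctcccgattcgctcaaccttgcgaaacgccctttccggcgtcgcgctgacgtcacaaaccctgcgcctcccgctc
The capitals in Cox6a1 join 2 overlapping NRF1 matches, 1 on each strand, and the GABPA match there lies on the opposite strand. Ndufb5 and Uqcrfs1 held none of the 4 motifs searched, which says only that these letters are absent from the window.

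Promoter windows were found for 33 of the 43 members. The motif search was made with 2 settings, and the second was chosen after the counts of the first had been seen. The first used the 250 upstream bases and longer spellings, namely GCGCA and GCGC with 1 base between them for NRF1, CCGGAAGT for GABPA, AAGATGGC for YY1 and TCAAGGTCA for ESRRA, on both strands. It found any of them in 15.2% of the 33 members and in 16.7% of 10036 tested genes with a window. NRF1 alone was found in 5 members (15.2%, against 8.9% of tested genes), and GABPA, YY1 and ESRRA in 0 members, against 6.4%, 2.4% and 0.3%.
The second used 300 bases, of which the last 50 lie past the start, with GCGCATGC, CCGGAAG, AAGATGGC and AAGGTCA. It found NRF1 in 6 members (18.2%, against 5.7% of tested genes), GABPA in 7 (21.2%, against 19.3%), YY1 in 5 (15.2%, against 5.1%), ESRRA in 2 (6.1%, against 3.9%) and any of them in 51.5%, against 30.2%. The shares therefore depended on spelling and window, and so did their place against the background: NRF1 was above it and the other 3 motifs below it in the first search, whereas in the second GABPA was near it and the others above. No excess is drawn from them.

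Host irradiation was the study's treatment, and no member passed the test for it. In wild-type hosts limma called 0 of 43 members and 0.0% of the 12508 genes at a Benjamini-Hochberg adjusted p of 0.05. At an unadjusted p below 0.05 there were 2 members, Ndufa1 and Ndufa8, against 7.07% of all genes, and 28 of 43 members had a positive log2 fold change, against 49.3% of all genes. The members' median log2 fold change stood at 0.03, against -0.00 for all genes. That small positive balance depended on which arrays were counted. Without WT_sham replicate 46, 19 members were positive with a median of -0.01, and without WT_sham replicate 17, 22 with a median of 0.00. Leaving out WT_irradiated replicate 57 instead gave 30 positive members and a median of 0.05. Without the arrays with an 18S control below 11, of which 4 lay in the sham group, 32 members were positive and the median was 0.11, while a covariate for that control gave 24 and 0.01. The part of the 18S control in these values was not tested further.

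In heterozygote hosts limma again called 0 of 43 members and 0.0% of genes. There were 4 members at an unadjusted p below 0.05, namely Cox5a, Sdha, Uqcrb and Ndufa9, all with higher values in irradiated hosts, against 5.84% of all genes in either direction. A positive log2 fold change was seen for 32 of 43 members, against 51.8% of all genes, with a median of 0.08 against 0.01. The 3' minus 5' difference, higher by median in this sham group, moved with the comparison: with it as a covariate 22 members were positive and the median was 0.01, against 50.7% and 0.00 for all genes. Averaged over the host genotypes, limma called 0 members and 1 gene (0.00799%), with 6 members at an unadjusted p below 0.05 against 7.77% of genes. Here 29 of 43 members were positive, against 50.4%, with a median of 0.05 against 0.00; the median was 0.02 with the 3' minus 5' covariate and 0.10 without the low 18S arrays. The difference of the irradiation effect between host genotypes gave 0 called members and 0.0% of genes, 0 members at an unadjusted p below 0.05 against 4.84% of genes, and 26 positive members against 51.8%.

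The intervals were narrow for most members. In the averaged comparison the 95% interval lay within 0.5 log2 units of 0 on both sides for 41 of 43 members, and the median interval reached 0.17 to either side of its estimate. The exceptions were Ndufa4 and Ndufa5, whose intervals reached 0.69 and 0.90. Within wild-type hosts 39 members and within heterozygote hosts 33 members had intervals inside that limit.

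**Figure D1:**
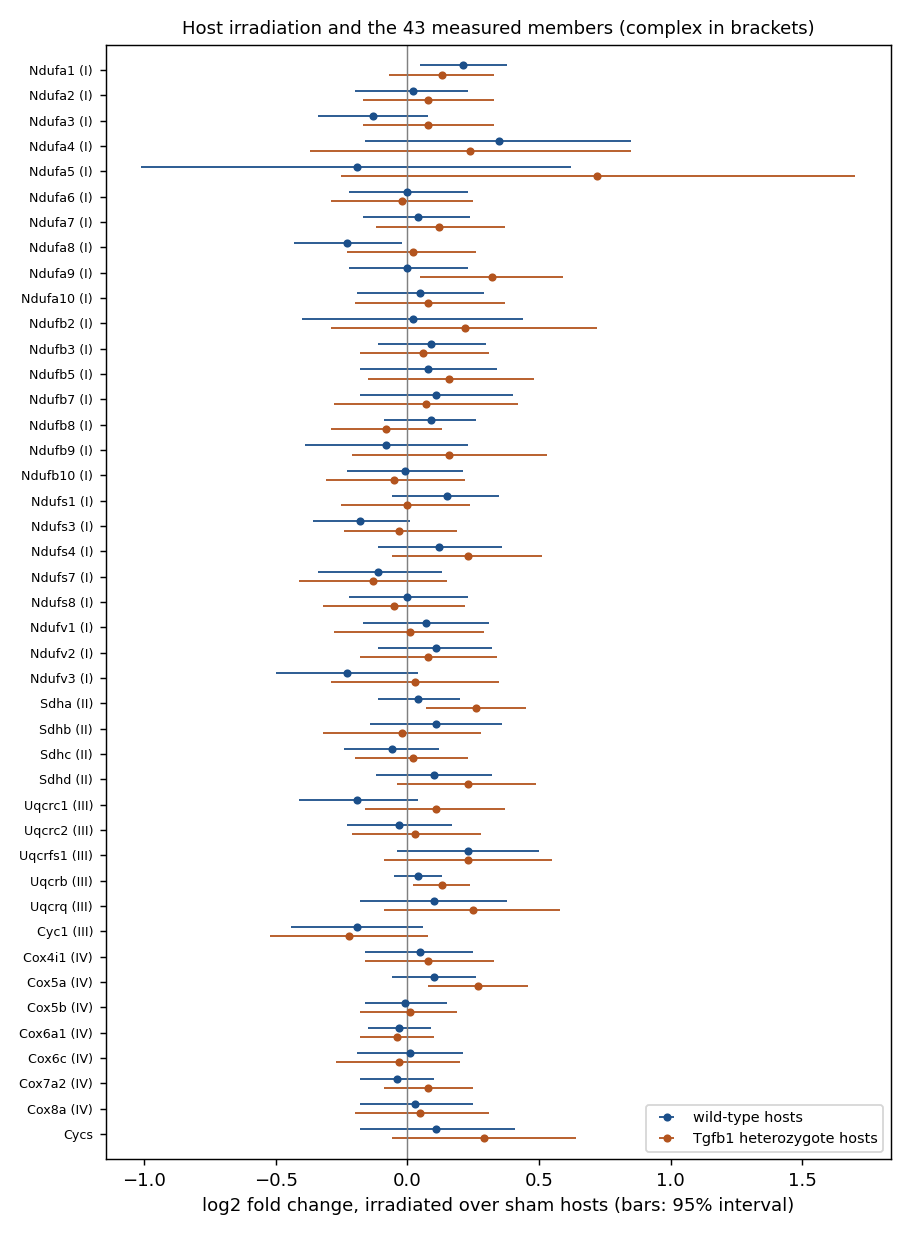
Log2 fold change of irradiated over sham-irradiated hosts for each of the 43 measured members (rows, grouped by complex), in wild-type (blue) and heterozygote hosts (brown), with 95% intervals from limma. The widest intervals belong to Ndufa5, from -1.01 to 0.62 and from -0.25 to 1.70.

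Among complex I genes, Ndufa1, an X-linked accessory subunit of the membrane arm, had the lowest p in wild-type hosts. Its log2 level ran from 12.06 through a median of 12.28 to 12.74 in sham-irradiated wild-type hosts and from 12.25 through 12.53 to 12.77 in irradiated ones. In heterozygote hosts it ran from 11.90 through 12.18 to 12.46 and from 11.76 through 12.36 to 12.67. The groups overlapped in both genotypes, although 22 of 23 irradiated wild-type tumors lay above the sham median. The log2 fold change came to 0.21, with a standard error (SE) of 0.08, in wild-type hosts (limma adjusted p = 0.577) and 0.13 (SE 0.10) in heterozygote hosts (limma adjusted p = 0.924).

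Ndufa8 and Ndufs3 had lower values after irradiation in wild-type hosts. Ndufs3 is a core subunit of the arm that passes electrons to ubiquinone, and Ndufa8 is an accessory subunit. Ndufa8 ran from 11.02 through 11.51 to 11.85 in sham-irradiated and from 10.43 through 11.34 to 11.64 in irradiated wild-type hosts, and only 2 of 23 irradiated tumors lay above the sham median. Its log2 fold change stood at -0.23 (SE 0.10, limma adjusted p = 0.666), and at -0.11 without the low 18S arrays and -0.15 with array weights. For Ndufs3 it was -0.18 (SE 0.09, limma adjusted p = 0.705), and again 2 of 23 tumors lay above the sham median. In heterozygote hosts the values were 0.02 for Ndufa8 and -0.03 for Ndufs3. The difference between genotypes missed the threshold for both, and for Ndufa8 it was 0.24 with an interval from -0.07 to 0.56.

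Ndufa9, an accessory subunit near the ubiquinone site, had the largest difference between genotypes by p. It ran from 10.40 through 10.78 to 11.10 in sham-irradiated and from 10.47 through 11.11 to 11.53 in irradiated heterozygote hosts, and 17 of 18 irradiated tumors lay above the sham median. In wild-type hosts the medians were 11.28 and 11.27. The log2 fold change came to 0.32 (SE 0.13) in heterozygote hosts (limma adjusted p = 0.766) and 0.00 in wild-type hosts, and the difference was 0.32 (SE 0.17, limma adjusted p = 0.999), or 0.21 with the 3' minus 5' covariate.

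The complex I members not described above had averaged log2 fold changes from -0.12, for the core subunit Ndufs7, to 0.29, for Ndufa4.

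Of complex II, Sdha, the flavoprotein that oxidizes succinate, had the lowest p. It ran from 10.18 through 10.54 to 10.85 in sham-irradiated and from 10.52 through 10.77 to 10.98 in irradiated heterozygote hosts. The ranges overlapped, with 17 of 18 irradiated tumors above the sham median, and the log2 fold change stood at 0.26 (SE 0.09, limma adjusted p = 0.680), but at 0.05 with all its probe sets averaged. In wild-type hosts it ran from 10.49 through 10.99 to 11.18 and from 10.54 through 10.99 to 11.46, with a log2 fold change of 0.04, or -0.01 without WT_sham replicate 46. The membrane anchor Sdhd had 0.23 in heterozygote and 0.10 in wild-type hosts, the other anchor Sdhc 0.02 and -0.06, and Sdhb -0.02 and 0.11. Complex II genes thus had no common size of difference in either genotype.

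Complex III held members on both sides. Uqcrfs1 had a log2 fold change of 0.23 in each genotype, with standard errors of 0.13 and 0.16, and averaged 0.23 (SE 0.10, limma adjusted p = 0.579). The wild-type value was 0.16 without WT_sham replicate 46, 0.11 with the 18S covariate and 0.34 without the low 18S arrays, and the heterozygote value was 0.04 with the 3' minus 5' covariate. It ran from 10.43 through 10.99 to 11.66 and from 10.17 through 11.33 to 11.59 in sham-irradiated and irradiated wild-type hosts, and from 10.59 through 10.99 to 11.42 and from 10.44 through 11.31 to 11.59 in heterozygote hosts. The lowest irradiated tumor of each genotype lay below the lowest sham tumor, so the groups overlapped although the medians differed.
Cyc1, cytochrome c1, had the opposite sign, -0.19 in wild-type and -0.22 in heterozygote hosts, and averaged -0.20 (SE 0.10, limma adjusted p = 0.617). The wild-type value was 0.02 without the low 18S arrays and -0.29 without WT_sham replicate 17, and the heterozygote value was -0.34 with the 3' minus 5' covariate. Its medians were 11.93 and 11.81 in sham-irradiated and irradiated wild-type hosts and 11.61 and 11.40 in heterozygote hosts, with 5 of 23 and 4 of 18 irradiated tumors above the sham median.
Uqcrb, the ubiquinone-binding small subunit, varied least of all members. It ran from 13.57 to 13.96 and from 13.76 to 14.04 in the wild-type groups and from 13.38 to 13.78 and from 13.58 to 13.83 in the heterozygote groups. All 18 irradiated heterozygote tumors lay above the sham median, and the log2 fold change there was 0.13 (SE 0.05, limma adjusted p = 0.766). The core proteins Uqcrc1 and Uqcrc2 and the small subunit Uqcrq averaged -0.04, 0.00 and 0.17, the last being 0.07 without Het_sham replicate 52 and 0.10 without WT_sham replicate 17.

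Of complex IV, Cox5a, a nuclear subunit on the matrix side, had the lowest p of all members in the averaged comparison. It ran from 11.87 through 12.41 to 12.59 in sham-irradiated and from 12.32 through 12.63 to 12.93 in irradiated heterozygote hosts, and 17 of 18 irradiated tumors lay above the sham median. In wild-type hosts it ran from 12.31 through 12.67 to 13.04 and from 12.10 through 12.80 to 12.96. The log2 fold change came to 0.27 (SE 0.10) in heterozygote hosts (limma adjusted p = 0.676), 0.10 in wild-type hosts and 0.19 (SE 0.06) on average (limma adjusted p = 0.376). Without Het_sham replicate 52, the lowest of that group, the heterozygote value was 0.18. The other complex IV members, Cox4i1, Cox5b, Cox6a1, Cox6c, Cox7a2 and Cox8a, had averaged log2 fold changes between -0.03 and 0.07. Cycs, the electron carrier between complexes III and IV, had 0.11 (SE 0.15) in wild-type and 0.29 (SE 0.18) in heterozygote hosts.

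**Figure D2:**
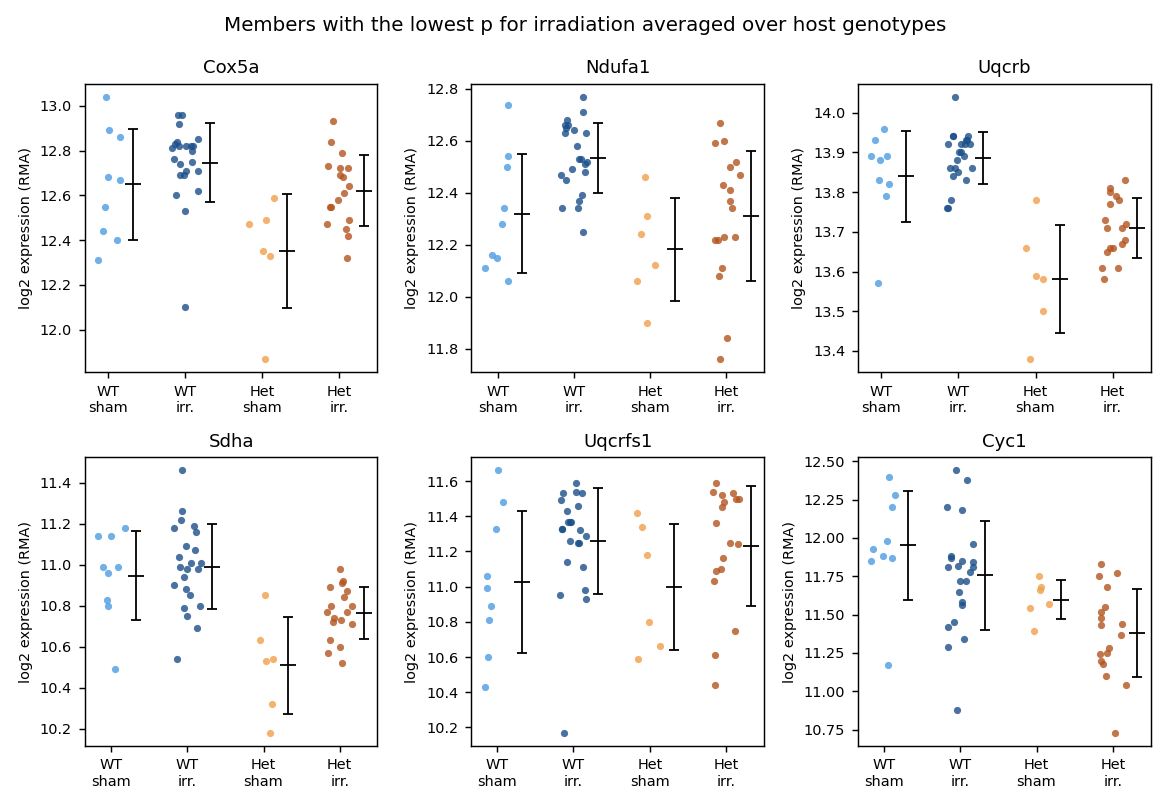
Log2 expression per array (points) of the 6 members with the lowest p in the averaged comparison, in the 4 groups; the bar beside each group is its mean and SD. Irradiated and sham-irradiated tumors overlap in all 6 members within each host genotype, Cox5a running from 11.87 to 12.59 and from 12.32 to 12.93 in heterozygote hosts.

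Chromosome 13 carried 4 members, looked at because earlier results of these data had pointed to that chromosome. Their log2 fold changes were positive in both genotypes. Ndufs4, an accessory subunit of the NADH-oxidizing arm, had 0.12 in wild-type and 0.23 in heterozygote hosts. Sdha had 0.04 and 0.26, Uqcrfs1 0.23 and 0.23, and Uqcrb 0.04 and 0.13. The wild-type values were smaller without WT_sham replicate 46, at 0.04 for Ndufs4, -0.01 for Sdha, 0.16 for Uqcrfs1 and 0.01 for Uqcrb. Their size in wild-type hosts thus depended on that tumor, and without it Sdha no longer shared the direction. With the 3' minus 5' covariate the heterozygote values were 0.07, 0.20, 0.04 and 0.11. None passed the test, and a direction shared by genes of a chromosome chosen from these data supports nothing by itself.

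The mean log2 level over the 43 members was 11.75 ± 0.20 (SD) over the 9 sham-irradiated tumors of wild-type hosts and 11.77 ± 0.14 (SD) over their 23 irradiated counterparts. For heterozygote hosts the means were 11.51 ± 0.07 (SD, 6 tumors) and 11.61 ± 0.14 (SD, 18 tumors). The groups overlapped in both genotypes, from 11.46 to 12.03 and from 11.25 to 11.96 in wild-type hosts, and from 11.43 to 11.61 and from 11.27 to 11.88 in heterozygote hosts. The lowest tumor was WT_irradiated replicate 57 at 11.25, with 39 of 43 members below their group means, and it also had the highest 3' minus 5' difference of the series, 0.91. Het_irradiated replicate 4 was next in its distance from the group mean, at 11.27 with 38 members below and a 3' minus 5' difference of 0.56, the highest of its group. The highest was WT_sham replicate 64 at 12.03, with 40 members above their group means. In these tumors the 18S control was 10.66, 10.97 and 9.28 in the order named, below 11 in each. The part of RNA integrity and of the 18S control in the member levels was not tested. In bulk RNA, fewer cells with many mitochondria and less transcript per cell cannot be told apart.

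Members varied less between tumors than most genes did. The within-group SD had a median of 0.27 over members and 0.41 over all genes tested, and 40 of 43 members were below the latter. Uqcrb was lowest at 0.09, and Cox6a1 was lowest of complex IV at 0.13. The exceptions were Ndufa5 at 1.05, Ndufa4 at 0.65 and Ndufb2 at 0.54, all on chromosome 6. Ndufa4 is named as a complex I gene, but its protein is now assigned to complex IV. The members lay high in signal, with group means from 11.51 to 11.77 against a table median of 5.83. Their SD was not compared with that of genes of like level. The probe set used for Uqcrb had a mean of 13.79. A second one, with a mean of 10.98, followed it with an r of 0.62 in wild-type and 0.38 in heterozygote hosts.

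Members moved together from tumor to tumor, more in wild-type than in heterozygote hosts by value. Correlations here are between deviations from group means, within a host genotype, and the points share array, normalization and RNA quality. Over 903 pairs of members the median r was 0.31 (n = 32 tumors) and 89.8% were positive in wild-type hosts, and it was 0.18 (n = 24) with 76.9% positive in heterozygote hosts. The median over pairs from an evenly spaced sample of 2502 tested genes was 0.00. The wild-type value was 0.23 without WT_irradiated replicate 57, and without the arrays with an 18S control below 11 the medians were 0.22 and 0.11. The first principal component held 34.6% of the members' variance in wild-type and 24.5% in heterozygote hosts.

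Belonging to the same complex made little difference to these values. Pairs within a complex had a median r of 0.32 in wild-type and 0.18 in heterozygote hosts, and pairs from different complexes 0.31 and 0.19. Within complex II the median was 0.07 and 0.13, within complex I 0.32 and 0.18, within complex III 0.33 and 0.23 and within complex IV 0.34 and 0.16. Lying on the same chromosome made a larger one, in a split chosen after the values had been seen. The 53 pairs on 1 chromosome had a median r of 0.60 and 0.57, and the other pairs 0.29 and 0.16.

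The most alike pairs show this in single genes. Ndufs8 and Ndufv1, complex I core subunits whose genes start 0.1 Mb apart on chromosome 19, had an r of 0.85 in wild-type and 0.81 in heterozygote hosts (rho 0.77 and 0.64, and r 0.78 and 0.71 without the 2 farthest tumors). Ndufb8 of complex I and Cox8a of complex IV, 37.3 Mb apart on the same chromosome, had 0.83 and 0.79. Ndufb9 and Cox6c on chromosome 15, from different complexes, had 0.84 and 0.77, and Sdhd and Cox7a2 on chromosome 9 had 0.74 and 0.74. Of the 20 pairs with the highest lower value of the 2 genotypes, 13 lay on 1 chromosome, against 5.9% of all pairs. The 14 same-chromosome pairs over 50 Mb apart had medians of 0.49 and 0.50, and the 10 pairs within 10 Mb 0.68 and 0.60. Not every such pair was alike. On chromosome 6 the wild-type values ran from -0.15 to 0.42. Ndufa7 with Ndufb10 on chromosome 17 had 0.41 in wild-type and -0.22 in heterozygote hosts. Between chromosomes the highest was Ndufs3 with Cox5b, at 0.70 and 0.77.

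**Figure D3:**
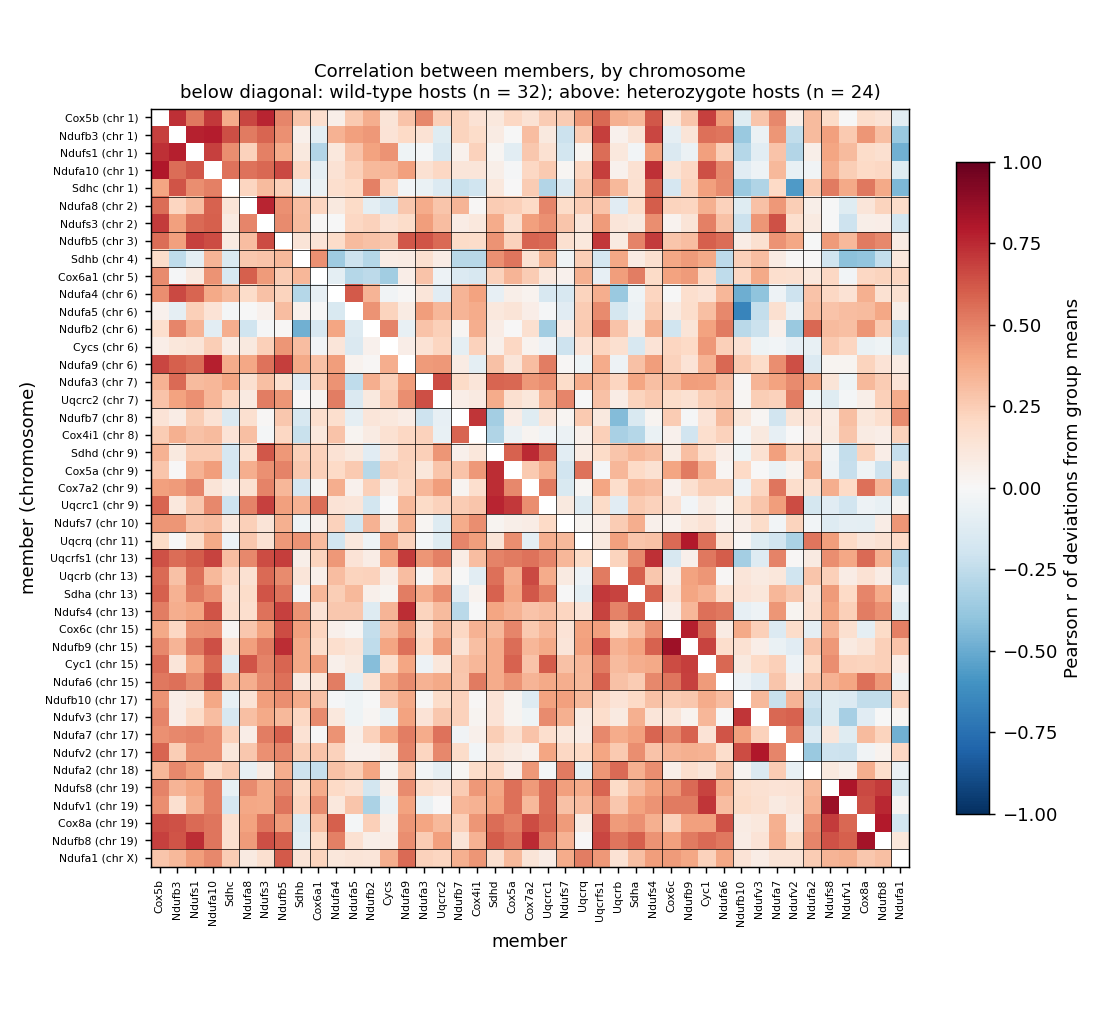
Pearson correlation of each pair of members over tumors, after subtracting group means, with members ordered by chromosome (black lines divide chromosomes); wild-type hosts lie below the diagonal and heterozygote hosts above it. Blocks of high values follow several chromosomes, the 53 same-chromosome pairs having medians of 0.60 and 0.57. Chromosome 6 forms no such block in wild-type hosts, where its pairs run from -0.15 to 0.42.

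Each member was also set against the mean of the other members. The median r was 0.55 in wild-type and 0.41 in heterozygote hosts, and 9 of 43 members were above 0.5 in both genotypes, against 1.85% of the other genes set against the mean of all members. All members but Ndufb10 were positive in both. Ndufb5 was highest, at 0.83 and 0.81 (rho 0.70 and 0.76), then Uqcrfs1 at 0.82 and 0.68 (rho 0.70 and 0.66) and Cox5b, a zinc-binding nuclear subunit of complex IV, at 0.81 and 0.68 (rho 0.84 and 0.61). Without the 2 farthest tumors of each genotype the r values were 0.68 and 0.60 for Ndufb5, 0.66 and 0.59 for Uqcrfs1 and 0.80 and 0.54 for Cox5b. These 3 genes, on chromosomes 3, 13 and 1, followed the members as a whole whether or not the extreme tumors were counted. Ndufb10, Sdhb and Ndufv3 were lowest, with r values of 0.40 and -0.21, 0.16 and 0.08, and 0.33 and 0.06.

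The member mean went against the 3' minus 5' difference, with an r of -0.57 in wild-type and -0.41 in heterozygote hosts. The wild-type value was -0.05 without WT_irradiated replicate 57, and rho was -0.14 and -0.13. Against the 18S control it was 0.04 and 0.20. Without the 2 farthest tumors of each genotype the r with the 3' minus 5' difference was -0.08 and -0.25. The part of RNA integrity in the member mean was not tested.

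Other mitochondrial gene lists followed the member mean. For 16 ATP synthase genes, the complex that uses the proton gradient, the r was 0.89 in wild-type and 0.84 in heterozygote hosts (rho 0.83 and 0.75, and 0.79 and 0.69 without the 2 farthest tumors). For 14 further subunits of complexes I to IV it was 0.88 and 0.84, for 76 mitochondrial ribosome genes 0.85 and 0.80, and for 39 assembly factors 0.83 and 0.66. Genes of the citrate cycle and pyruvate dehydrogenase, which supply NADH and succinate, had 0.78 and 0.51, the latter 0.20 without the 2 farthest tumors. Cytosolic ribosome genes had 0.63 and 0.17. By value the relation was strongest for the ATP synthase, further subunit and mitochondrial ribosome lists. In heterozygote hosts without the 2 farthest tumors, assembly factors had 0.46, beside 0.47 for the hypoxia and glycolysis list.
Proliferation genes had 0.48 and 0.49, but 0.06 and 0.21 without the 2 farthest tumors. The hypoxia and glycolysis list was positive, at 0.39 and 0.42 (rho 0.39 and 0.50), the same sign as the mitochondrial lists.

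Endothelial and fibroblast markers went against the member mean in both genotypes. The mean of 6 endothelial markers had an r of -0.62 in wild-type and -0.35 in heterozygote hosts (-0.59 and -0.35 without the 2 farthest tumors), and that of 7 fibroblast markers -0.50 and -0.35 (-0.44 and -0.36). The endothelial list mean ran from 6.90 to 12.06 and from 6.91 to 9.06 in sham-irradiated and irradiated wild-type hosts, and from 6.28 to 9.65 and from 6.80 to 10.44 in heterozygote hosts. The fibroblast list mean ran from 9.23 to 11.98, from 9.67 to 12.33, from 9.31 to 12.45 and from 8.51 to 12.65 in the same order. Tumors with higher levels of these markers thus tended to have lower member means. Epithelial markers had 0.21 and 0.38, macrophage markers -0.34 and -0.19 and skeletal muscle markers -0.02 and 0.20, the latter -0.31 without the 2 farthest tumors. The part of cell makeup in the members' common variation was not tested.

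**Figure D4:**
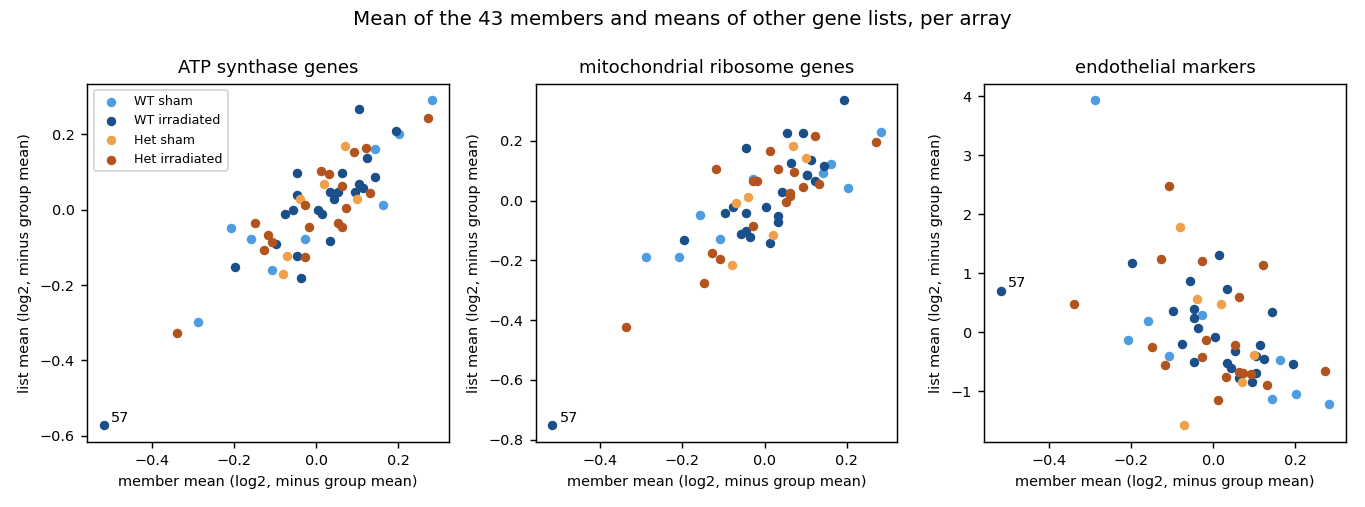
Mean log2 level of the 43 members (x) against the mean of 16 ATP synthase genes, 76 mitochondrial ribosome genes and 6 endothelial markers (y), per array and minus the group mean, coloured by group. The r values in wild-type and heterozygote hosts are 0.89 and 0.84 for ATP synthase and -0.62 and -0.35 for endothelial markers, and WT_irradiated replicate 57 is the lowest point on the x axis.

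Single genes outside the list were ranked by their correlation with the member mean in both genotypes. Atp5g1, which encodes a ring subunit of ATP synthase, was the most alike of 12465 genes, with 0.92 and 0.88 (rho 0.87 and 0.85). It was followed by Zfand1 (0.74 and 0.78), Zfp692 (0.74 and 0.79), Mrpl42 of the mitochondrial ribosome (0.77 and 0.72) and Uqcr11, a complex III subunit outside the list (0.79 and 0.71). The most opposite was Bmp2, which encodes a secreted bone morphogenetic protein, with -0.81 and -0.76 (rho -0.76 and -0.71). Bmp2 ran from 5.06 to 9.62 and from 5.34 to 11.94 in the wild-type groups and from 6.32 to 9.65 and from 5.49 to 11.47 in the heterozygote groups. Its highest tumors were WT_irradiated replicate 57 and Het_irradiated replicate 4, the same tumors in which the members were lowest; without the 2 farthest tumors r was -0.68 and -0.62. Spred3, Trim3, Cap1 and Ptp4a2 followed.

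Known regulators of these genes were taken singly, so their values are not set beside those of list means. Single members against the other members had medians of 0.55 and 0.41. In wild-type hosts the regulators named here lay below the former. Tfam, which packages mitochondrial DNA and takes part in its transcription, had 0.47 and 0.41. Ppargc1a, a coactivator of mitochondrial genes, had 0.35 and 0.32, Esrra 0.27 and 0.43, and Nrf1 0.29 and 0.13. The level of Ppargc1a was low, with group medians from 5.29 to 6.72 around the filter's limit of 5.83. Gabpa had -0.07 and -0.31 and Yy1 -0.31 and -0.41. Hif1a, which mediates the response to low oxygen, had -0.50 and -0.35. A factor's transcript level does not give its activity.

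Each member was then set against the median of its neighbours, the non-member genes starting within 5 Mb, a window chosen after values had been seen. There were from 19 to 199 neighbours per member. The median r was 0.55 in wild-type and 0.57 in heterozygote hosts, while the windows of members on other chromosomes gave 0.04 and -0.03. The same measure over 12327 genes had medians of 0.38 and 0.39. Above 0.5 in both genotypes were 20 of 43 members, against 23.4% of all genes with at least 10 neighbours. With windows of 2 and 10 Mb there were 22 and 23. By median, tumor-to-tumor variation shared with the chromosome segment was therefore seen over the tested genes too, with higher values for the members. It was not seen for every gene, and the difference between members and all genes was not tested.

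Cox4i1, the largest nuclear subunit of complex IV, was closest to its neighbours, with 0.90 and 0.88 (rho 0.83 and 0.80). Its lowest tumors were WT_sham replicate 17 at 12.47 and Het_sham replicate 58 at 12.58, in which the median neighbour lay 0.52 and 0.48 below its group mean. Uqcrq, a small complex III subunit on chromosome 11, had 0.76 and 0.88, and Ndufb7 on chromosome 8 had 0.88 and 0.67. Ndufb7 was highest in WT_irradiated replicate 11, at 13.18 against a group median of 11.87, and its neighbours there lay 1.37 above their group mean. In such tumors a subunit and its unrelated neighbours were high or low together. At 5 Mb the lowest values belonged to Ndufs4, at 0.16 and 0.04, and in wild-type hosts to Uqcrfs1, at -0.00 (0.57 in heterozygote hosts). These depended on the window. In wild-type hosts Ndufs4 had 0.01 at 2 Mb and 0.49 at 10 Mb, and Uqcrfs1 0.31 and 0.47.

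**Figure D5:**
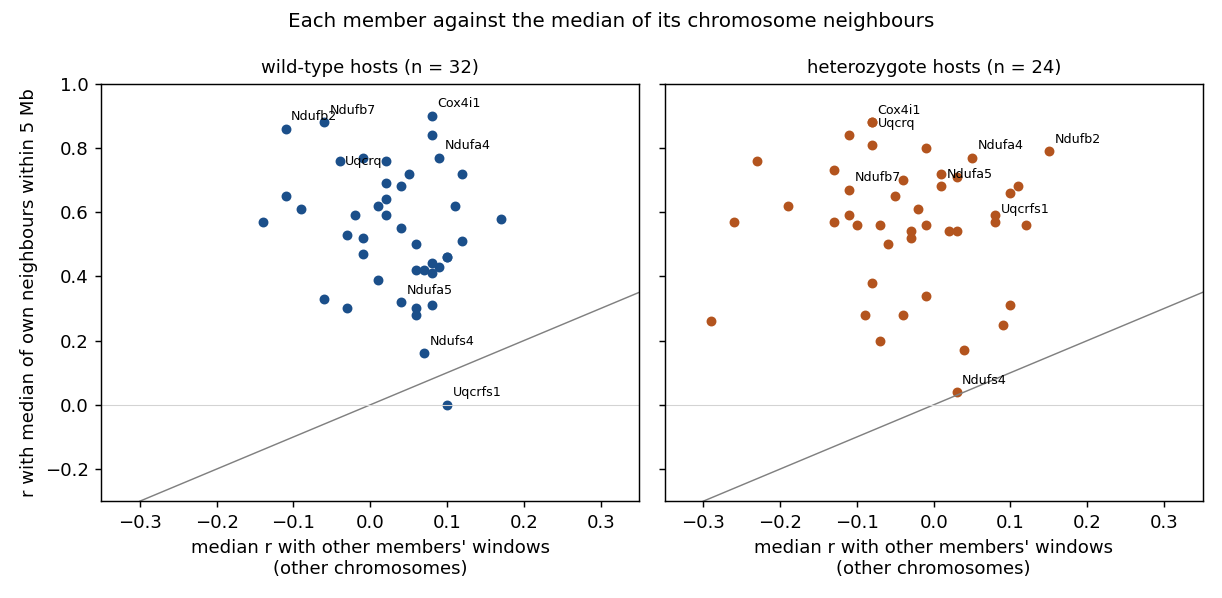
For each of the 43 members, the correlation with the median of its own neighbours within 5 Mb (y) against the median correlation with the windows of members on other chromosomes (x), in wild-type and heterozygote hosts; the line marks equality. Nearly all points lie above the line, Cox4i1 at 0.90 and 0.88, with Uqcrfs1 in wild-type hosts below it at -0.00.

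The chromosome 6 members varied most and are given by tumor. Ndufa5, an accessory subunit of the arm facing the matrix, ran from 9.88 through 11.23 to 12.65 in sham-irradiated and from 10.11 through 10.88 to 13.97 in irradiated wild-type hosts. In heterozygote hosts it ran from 10.65 through 10.91 to 11.95 and from 10.36 through 11.40 to 14.23. The upper ends were set by single tumors in the irradiated groups, namely WT_irradiated replicates 25 and 2 (13.97 and 13.44) and Het_irradiated replicates 26, 47 and 33 (14.23, 13.88 and 13.76). Its log2 fold change stood at -0.19 (SE 0.41) in wild-type and 0.72 (SE 0.49) in heterozygote hosts (limma adjusted p = 0.962 and 0.912).
A second probe set of Ndufa5 followed the first with an r of 0.99 in both genotypes.

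Ndufa4 ran from 11.62 through 12.96 to 14.10 and from 11.49 through 12.98 to 14.07 in the wild-type groups, and from 12.28 through 12.33 to 13.17 and from 12.16 through 12.61 to 14.26 in the heterozygote groups. Ndufb2 ran from 10.41 to 11.90 and from 10.16 to 12.54 in the wild-type groups with medians of 11.62 and 11.22, and had medians of 11.09 and 11.36 in the heterozygote groups. Ndufa4 and Ndufb2 followed their neighbours, with 0.77 and 0.77 and with 0.86 and 0.79. Ndufa5 had 0.32 and 0.68 at 5 Mb, and 0.63 and 0.79 at 2 Mb.
The high tumors of these genes were not the same. WT_irradiated replicate 25, highest in Ndufa5, was the lowest wild-type tumor in Ndufa4 (11.49) and in Ndufb2 (10.16). WT_sham replicate 3, highest in Ndufa4 at 14.10, had 11.23 for Ndufa5 and a neighbour median 2.14 above its group mean. Het_irradiated replicate 33 was high in both, at 14.26 and 13.76. Over all tumors Ndufa4 and Ndufa5, 12.6 Mb apart, had an r of -0.15 in wild-type and 0.61 in heterozygote hosts (rho 0.05 and 0.67).

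Met, the gene of the hepatocyte growth factor receptor, lies between them, 5.6 Mb from Ndufa4 and 7.1 Mb from Ndufa5, and was chosen after values were seen. It ran from 11.13 to 14.01 and from 7.25 to 14.06 in the wild-type groups and from 9.76 to 13.94 and from 9.67 to 14.07 in the heterozygote groups. Ndufa5 and Met had an r of 0.28 in wild-type and 0.61 in heterozygote hosts (rho 0.10 and 0.58), and Ndufa4 and Met 0.27 and 0.44 (rho 0.27 and 0.35). The Met medians, 13.67 and 13.84 in the wild-type and 12.33 and 13.66 in the heterozygote groups, lay near the top of its range in 3 of the 4 groups.

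Several subunits have a second gene used in muscle, testis or hypoxic cells, and 7 such isoforms were measured. Cox6a2 and Cox8b, the heart and skeletal muscle forms of Cox6a1 and Cox8a, were high in few tumors. Cox6a2 had group medians from 6.45 to 6.71 but was highest in WT_irradiated replicate 59, with 9.75 in replicate 11 of the same group, 8.95 in WT_sham replicate 60 and 8.92 in Het_irradiated replicate 42. Cox8b reached 8.46, 9.38, 7.54 and 8.11 in those 4 tumors, against group medians from 4.74 to 5.98. The same tumors had high skeletal muscle transcripts, with Acta1 at 13.43, 13.48, 12.45 and 12.56 and a mean of 11 muscle markers of 11.28, 9.98, 10.44 and 10.44, against group medians of that mean from 4.93 to 5.47. Cox6a2 followed the muscle list with an r of 0.90 in wild-type and 0.85 in heterozygote hosts (rho 0.60 and 0.61), and Cox8b with 0.70 and 0.82 (rho 0.27 and 0.59). The general forms did not stand out there, with Cox6a1 between 13.77 and 13.90 and Cox8a between 11.98 and 12.44.
Ndufa4l2, a form induced by low oxygen, reached 9.89 in WT_sham replicate 46, with a median of 6.78 in that group. It had an r of 0.29 and 0.22 with the hypoxia and glycolysis list. No isoform passed the test for irradiation, the lowest adjusted p in the single genotypes and their average being 0.666, for Cox8c, a testis form of Cox8a, in wild-type hosts.

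No gene of the other mitochondrial lists passed the test for irradiation in the averaged comparison either. At an unadjusted p below 0.05 there were 8 of 76 mitochondrial ribosome genes and 5 of 39 assembly factors, all with higher values after irradiation, beside 7.77% of all genes in either direction. Of 15 citrate cycle and pyruvate dehydrogenase genes 1 was at that p, Suclg2, a succinate-CoA ligase subunit, and it had a lower value (-0.38, SE 0.16, limma adjusted p = 0.563). The lowest p-values of the ribosome list belonged to Mrpl32 on chromosome 13 (log2 fold change 0.26, SE 0.08, limma adjusted p = 0.345) and Mrps23 on chromosome 11 (0.38, SE 0.12, limma adjusted p = 0.369). Of the assembly factors the lowest was Cox11 on chromosome 11, which helps to insert copper into complex IV (0.35, SE 0.11, limma adjusted p = 0.369). Ndufaf2, a complex I assembly factor on chromosome 13, was next (0.33, SE 0.11, limma adjusted p = 0.369). Among regulators Mterf3, which acts on mitochondrial transcription and also lies on chromosome 13, had 0.30 (SE 0.07, limma adjusted p = 0.182). Of 16 ATP synthase genes 9 were positive and 0 passed an unadjusted p of 0.05, and of 14 further subunits 8 were positive and 0 passed it.
The medians of these lists, 0.06 for the mitochondrial ribosome, 0.04 for assembly factors, 0.01 for ATP synthase and 0.06 for further subunits, lay beside the members' 0.05, and that of the citrate cycle and pyruvate dehydrogenase list was 0.03. Of the 22 hypoxia and glycolysis genes 17 had lower values after irradiation in the averaged comparison, with a median of -0.11, while 50.4% of all genes had positive ones. In wild-type hosts 19 were lower, with a median of -0.20, and in heterozygote hosts 11, with a median of -0.00. In the average 3 were at an unadjusted p below 0.05, among them Pfkl, a phosphofructokinase (-0.45, SE 0.17, limma adjusted p = 0.477). None was called.

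For 26 members a second probe set passed the filter, and the 2 followed each other with a median r of 0.90 in wild-type and 0.85 in heterozygote hosts. The lowest values were 0.26 for Ndufa10 in wild-type and 0.17 for Sdhd in heterozygote hosts, whose second probe sets were dimmer. For Sdha, with 0.50 and 0.30, and Cox5a, with 0.75 and 0.56, the probe sets followed each other less closely than for most members, and both are among the members with the lowest p.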

How the data were processed

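The deposited table gives 1 log2 expression value per probe set and array for 56 arrays, computed by the authors with RMA per the submitters' processing notes; which version is not given in those sources. Per the labels, 100 ng of total RNA was labelled for each array. The platform annotation named 1 gene for 34958 of 45101 probe sets, several for 932 and none here for 9211; the first kind was used, with symbols updated through GRCm38.p6. Probe sets exceeding 5.83, the median over the table, on 6 or more arrays were kept, and each gene took its probe set of highest mean.

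Groups came from the labels. limma 3.58.1 in R 4.3.3 (lmFit and eBayes) modelled 4 group means over all 56 arrays, with a Benjamini-Hochberg adjusted p threshold of 0.05 over 12508 genes, and was tested on simulated data. The number of arrays limits the precision. Correlations used deviations from group means within a host genotype. Named members were, per comparison, the 3 with the lowest p in each direction, those most and least variable per complex, those most and least alike the other members, those on chromosome 13 and those with tissue isoforms; the chromosome 6 genes, neighbour windows, Met, same-chromosome pairs and motif settings were chosen after values were seen. The members and lists were chosen with earlier results of these data known. 1 gene, that of the fragments' deletion, is left out here. Alternatives covered filters, probe sets, normalization, array weights, covariates and each array left out. Plots used matplotlib 3.10.9 in Python 3.11.15.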

Additional observations from a re-analysis of the deposited data

Results flagged for a closer look

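In groups of 6 and 9 sham-irradiated tumors, 86 sets of values were tested, 1 per member and group. In 10 of them the lowest tumor lay far from the others. Chance flags about 1 in 20 sets, but these sets share tumors and the members vary together. No share over all genes is given here, so the count is not read as an excess. WT_sham replicate 46 was low in Ndufa2 (11.09, next 12.24), Ndufs4 (9.38, next 9.90) and Uqcrb (13.57, next 13.79). WT_sham replicate 17 was low in Uqcrq (10.22, next 11.26), Cyc1 (11.17, next 11.85) and Cox4i1 (12.47, with a gap to the next of 0.50 of the group's range). Het_sham replicate 52 was low in Ndufb9 (10.68, next 12.13), Uqcrq (10.16, next 11.09) and Cox5a (11.87, next 12.33). Het_sham replicate 19 was low in Cox7a2 (12.74, next 12.96).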

How the results depend on the processing

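No member was called in any of the 4 irradiation comparisons under any alternative or with any array left out. Of 282 values of named members under alternatives other than leaving out an array, 281 kept their direction and 25 moved by over 1.5 times. The lowest adjusted p was 0.179 (limma). Ndufb8 in heterozygote hosts was 0.03 with all probe sets averaged, against -0.08. The filters, the trended and robust eBayes and the fit of 1 host genotype alone left the members' fold changes as they were. Most named members had also been picked by p in these data. The count of kept directions therefore does not measure robustness. The single gene called in the averaged comparison became 0 with all probe sets averaged, with the 3' minus 5' covariate and with the 18S covariate, 19 with array weights, and from 0 to 2 with 1 array left out. The group means of the members were 10.84, 10.87, 10.59 and 10.68 with all probe sets averaged (WT_sham, WT_irradiated, Het_sham, Het_irradiated). As a median over members they were 11.63, 11.60, 11.34 and 11.45, so that in wild-type hosts the irradiated group was the lower, unlike in the means, and with joint quantile normalization Het_sham was 11.64. With all probe sets averaged Sdha averaged 0.02, against 0.15, and Uqcrb 0.18, against 0.09. Uqcrc1 differed between genotypes by 0.07 without the low 18S arrays, against 0.29. The median pairwise r was 0.22 and 0.11 without the low 18S arrays. The cause of these shifts was not tested. No paired analysis was possible because replicate numbers do not recur across groups. Arrays give no depth, and 6 to 23 tumors per group limit the precision.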
